A study of Homo sapiens with 6 samples.

Results

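The mRNAs of the exocyst were examined in HCT116, a human colorectal cancer cell line, after knockdown of Matrin3, a nuclear RNA-binding protein. The members were the 9 genes named as exocyst subunits, EXOC1, EXOC2, EXOC3, EXOC4, EXOC5, EXOC6, EXOC6B, EXOC7 and EXOC8, of 56632 genes in the tables, and the family was selected on the TPM and expected counts of EXOC2, which fell strongly in these libraries. EXOC2 is therefore described without a test, and the other 8 subunits, which belong to the family by name whatever their values, were read from a test over all genes. Poly(A) RNA was sequenced from 3 siMatrin3 libraries, transfected with a pool of siRNAs against Matrin3, and 3 siCTRL libraries, transfected with the Allstars negative control siRNA. Both groups were HCT116 cells, and both were transfected in 2 rounds 72 hours apart. The labels place harvest 48 hours after the last round, whereas the methods place it later and mention reseeding in between. A single cell line was studied, and bulk RNA cannot tell fewer cells of a kind from less RNA per cell. The study calls the libraries biological triplicates, and p-values here measure the spread between them.

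The exocyst is a complex of 8 subunits that holds secretory vesicles at the plasma membrane before SNARE proteins fuse them with it. It serves delivery of membrane and receptors, ciliogenesis, growth of epithelial surfaces and the last step of cytokinesis. EXOC1 (Sec3), EXOC2 (Sec5), EXOC3 (Sec6) and EXOC4 (Sec8) form subcomplex I, and EXOC5 (Sec10), EXOC6 or its paralog EXOC6B (Sec15), EXOC7 (Exo70) and EXOC8 (Exo84) form subcomplex II. EXOC1 and EXOC7 bind phosphoinositides of the plasma membrane, EXOC6 binds the vesicle GTPase RAB11, and EXOC2 and EXOC8 are bound by the active RAL GTPases RALA and RALB.

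The 6 libraries held 40808173 to 54185650 expected counts, that is, reads assigned to genes by a model that divides shared reads. Mitochondrial transcripts took 14.5% to 15.16% of counts in siMatrin3 libraries and 13.46% to 14.94% in siCTRL libraries. MATR3 (ENSG00000015479), the targeted gene, was at 95.17, 112.05 and 110.67 TPM (a level per transcript length) in siMatrin3 libraries, against 186.39, 180.25 and 176.46 TPM in siCTRL libraries. Its log2 fold change, siMatrin3 over siCTRL, was -0.93 ± 0.06 (SE; edgeR quasi-likelihood test with p adjusted by Benjamini-Hochberg, 7.67e-05). In all, 1849 of 16786 genes tested passed an adjusted p of 0.05, 847 higher and 1002 lower in siMatrin3. Of 6 colon epithelial markers, 5 were at 1 TPM or more in every library (VIL1 was below), and their summed level was 2210 to 2426 TPM in siMatrin3 libraries and 2466 to 2646 TPM in siCTRL libraries, with 1 marker, KRT18, called lower. Of 5 markers of other cell types found in the tables, PTPRC and DCN were at 0 in all libraries, while CD68 averaged 14.7 TPM in siMatrin3 and 14.3 TPM in siCTRL and COL1A1 averaged 16.6 TPM in siMatrin3 and 15 TPM in siCTRL, and the list summed to 26.99 to 34.32 TPM in siMatrin3 libraries and 27.71 to 31.91 TPM in siCTRL libraries. Most of the epithelial sum was KRT8 (1125 TPM in siMatrin3, 1235 TPM in siCTRL) and KRT18 (896.9 TPM in siMatrin3, 1007 TPM in siCTRL). CDH1 was also slightly lower in siMatrin3 (70.4 TPM, against 74.9 TPM in siCTRL). EPCAM (242.7 TPM in siMatrin3, 240.4 TPM in siCTRL), CDX2 and VIL1 were level or slightly higher. The median log2 fold change of the 6 epithelial markers was 0.0055. The part of this keratin difference in the subunit values was not tested.

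Among the subunits, EXOC2 and EXOC8 were those whose CPM (counts relative to library size) did not overlap between the groups. Their promoters are printed here for that reason, although 31% of all genes tested had CPM that did not overlap. No assay here measured the promoters. The sequences are RefSeq's on GRCh38.p14, 250 bases before to 50 after the annotated start, read 5′ to 3′ on the gene's strand, which is the minus strand for both genes. EXOC2 lies at chr6:693090-693389 and EXOC8 at chr1:231337803-231338102. Capitals mark matches, on either strand, to any of the motifs searched. The GC box bound by Sp factors was searched as GGGCGG, and the core of the ETS factor motif was searched as CGGAAG. For the factor NRF1 the core of its motif was searched as TGCGCA, which reads the same on both strands. The box bound by NF-Y was searched as CCAAT, and the box bound by TBP was searched as TATAAA.
EXOC2: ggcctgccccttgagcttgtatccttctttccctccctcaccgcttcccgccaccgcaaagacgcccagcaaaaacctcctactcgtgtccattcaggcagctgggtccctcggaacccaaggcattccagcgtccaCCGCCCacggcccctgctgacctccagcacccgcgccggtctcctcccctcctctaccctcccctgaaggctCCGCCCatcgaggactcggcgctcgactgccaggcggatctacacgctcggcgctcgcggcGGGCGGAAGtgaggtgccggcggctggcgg
EXOC8: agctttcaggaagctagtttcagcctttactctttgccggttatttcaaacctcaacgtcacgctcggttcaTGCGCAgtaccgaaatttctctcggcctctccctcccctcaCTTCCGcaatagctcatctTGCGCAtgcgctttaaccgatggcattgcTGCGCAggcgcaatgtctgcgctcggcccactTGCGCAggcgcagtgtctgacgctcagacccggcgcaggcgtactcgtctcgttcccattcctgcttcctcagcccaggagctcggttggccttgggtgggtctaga
The EXOC2 window held 3 GC boxes and 1 ETS core, the last GC box sharing bases with the ETS core, and no match to the NF-Y, TBP or NRF1 motif. The EXOC8 window held 4 NRF1 cores and 1 ETS core and no GC box. Over all 35116 promoters of the table, 45% held a GC box, 8.24% an NRF1 core, 19.5% an ETS core, 34.6% the NF-Y box and 11.5% the TBP box. Promoters of 8 of the 9 subunits were in the table, in 11 windows because EXOC6 has 3 and EXOC7 has 2, and EXOC6B had none. An ETS core was found in 9 of the 11 windows and in at least 1 window of each of the 8 genes, a GC box in 7 windows of 6 genes, and the TBP box in 0 windows. The NRF1 core was found in the EXOC8 window alone of the 11. These matches are descriptions of letters and were not tested against the values.

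EXOC2 (ENSG00000112685), the subunit that carries the RAL binding domain of subcomplex I, was at 4.39, 4.98 and 5.17 TPM in siMatrin3 libraries, against 15.65, 12.97 and 13.77 TPM in siCTRL libraries. The highest siMatrin3 library was well under the lowest siCTRL library, on the TPM scale as on the count scale. The expected counts behind these levels were 765, 689 and 815 in siMatrin3 libraries and 2499, 1801 and 2249 in siCTRL libraries, and all were whole numbers, as they are where no read is divided between genes. The mean level was 4.85 ± 0.407 TPM in siMatrin3 and 14.1 ± 1.38 TPM in siCTRL (SD, n = 3 each), that is 34.3% of the siCTRL mean, and the log2 fold change of counts was -1.51 ± 0.07 (SE). These values led to the choice of the family, and no test of them is given.

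Set beside the targeted gene, the 3 siMatrin3 libraries held 31.4%, 35% and 39.2% of the siCTRL mean CPM for EXOC2 and 46.6%, 56.2% and 54.8% for MATR3. In each library the remaining share of EXOC2 mRNA was smaller than that of MATR3 mRNA, and replicate 1 was lowest for both. By size of fall, EXOC2 ranked 42 among all 16786 genes tested, a rank drawn from the values that led to the choice of the family. In the settings tried, the log2 fold change of EXOC2 lay between -1.59 and -1.37. The 3 protein-coding genes of at least 5 TPM whose log2 CPM followed EXOC2 most closely over the 6 libraries, of 9567 compared, were HBE1 (epsilon globin, Pearson r = 0.998), SIAE (a sialate esterase, r = 0.997) and LMTK3 (a membrane kinase, r = 0.997). Their log2 fold changes were -1.62, -0.36 and -0.12, so likeness of pattern did not mean a fall of like size. The 6 points of each correlation fall into the 2 groups and share libraries and depth, so r is given only as the measure of likeness.

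**Figure D1:**
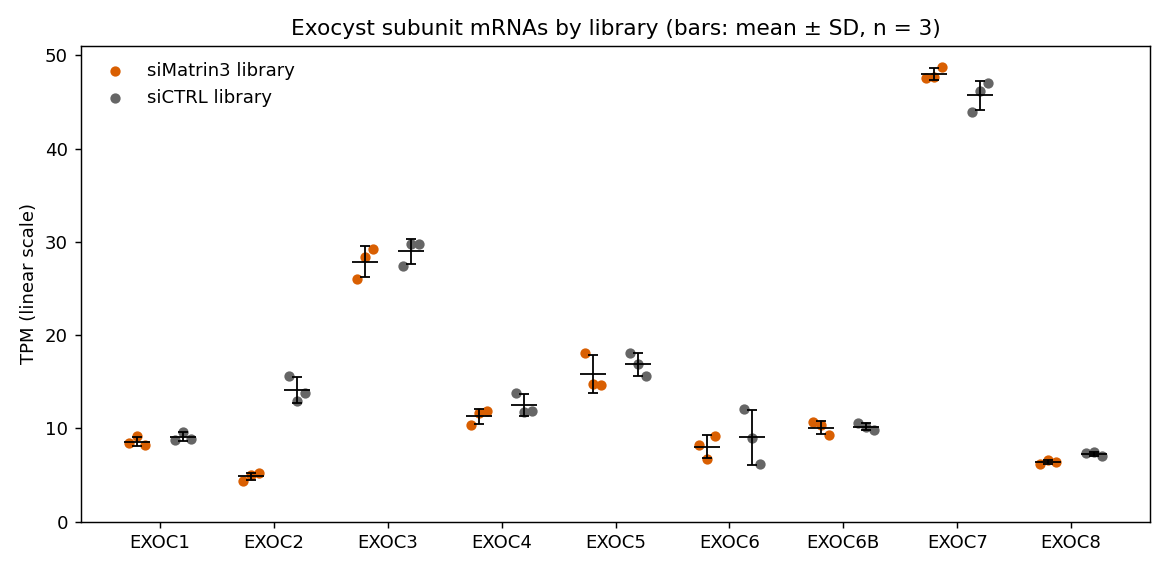
Level of each exocyst subunit mRNA in TPM (linear axis) in 3 siMatrin3 (orange, left) and 3 siCTRL (grey, right) libraries, with mean ± SD. EXOC2 sits at 4.39 to 5.17 TPM in siMatrin3 and 12.97 to 15.65 TPM in siCTRL, and the groups also stand apart for EXOC8 and, narrowly, EXOC7. The share of all genes that stand apart in TPM is not given here.

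The other subunits of subcomplex I stayed near their siCTRL levels. EXOC1 (ENSG00000090989), which in yeast marks sites of tethering at the membrane, was at 8.40, 9.15 and 8.21 TPM in siMatrin3 libraries and 8.76, 9.65 and 8.89 TPM in siCTRL libraries, overlapping ranges. Its log2 fold change was -0.07 with a 95% interval of -0.18 to 0.04 (edgeR adjusted p = 0.42). EXOC3 (ENSG00000180104), a core subunit that in yeast binds the SNARE Sec9, was at 25.99, 28.39 and 29.23 TPM in siMatrin3 libraries and 27.45, 29.76 and 29.78 TPM in siCTRL libraries. Here too the groups overlapped, and the log2 fold change was 0.01 with an interval of -0.12 to 0.14 (edgeR adjusted p = 0.962). EXOC4 (ENSG00000131558), the partner of EXOC3 in the complex, was at 10.39, 11.66 and 11.87 TPM in siMatrin3 libraries and 13.84, 11.71 and 11.90 TPM in siCTRL libraries. The groups overlapped, siCTRL replicate 1 alone standing well above the siMatrin3 range, and the log2 fold change was -0.10 with an interval of -0.24 to 0.04 (edgeR adjusted p = 0.355). The summed level of EXOC1, EXOC3 and EXOC4 was 44.78, 49.2 and 49.31 TPM in siMatrin3 libraries and 50.05, 51.12 and 50.57 TPM in siCTRL libraries. On the TPM scale all siMatrin3 sums were the lower ones, although none of the 3 genes passed the test. On the count scale each of the 3 overlapped between the groups. The separation of the sums was not examined on counts and has no share over all genes beside it. The sum of the 5 genes of subcomplex II overlapped between the groups, at 90.71, 86.06 and 88.3 TPM in siMatrin3 libraries and 91.87, 89.53 and 85.67 TPM in siCTRL libraries. The ratio of EXOC2 to EXOC4 mRNA within a library was 0.423, 0.427 and 0.436 in siMatrin3 libraries, against 1.13, 1.11 and 1.16 in siCTRL libraries. Ratios to EXOC1, EXOC3 and EXOC8 spread more within siCTRL. EXOC2 stood to EXOC1 as 0.523 to 0.63 in siMatrin3 and 1.34 to 1.79 in siCTRL, to EXOC3 as 0.169 to 0.177 in siMatrin3 and 0.436 to 0.57 in siCTRL, and to EXOC8 as 0.706 to 0.803 in siMatrin3 and 1.74 to 2.14 in siCTRL.

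In subcomplex II, EXOC8 was the 1 subunit called by the test. EXOC8 (ENSG00000116903), the second subunit bound by RAL GTPases, was at 25.5, 26.56 and 26.09 CPM in siMatrin3 libraries, against 29.51, 29.57 and 28.24 CPM in siCTRL libraries. Its levels were 6.22, 6.56 and 6.44 TPM in siMatrin3 libraries, against 7.31, 7.45 and 7.02 TPM in siCTRL libraries. The groups did not overlap on either scale, and the siMatrin3 mean CPM was 89.5% of the siCTRL mean. The log2 fold change was -0.16 ± 0.04 (SE; 95% interval -0.26 to -0.07; edgeR quasi-likelihood adjusted p = 0.0378, lower in all 3 siMatrin3 libraries). The adjusted p was over 0.05 when any single library was left out (0.0687 to 0.125), in DESeq2 (0.109) and for limma fitted to log2(TPM + 1) (0.228), while the log2 fold change kept to -0.18 to -0.15 over all settings. EXOC8 is a gene of 1 exon whose 5100-base transcript shares 749 exon bases with SPRTN on the opposite strand. The counts of EXOC8 were fractional in every library. SPRTN had a log2 fold change of counts of -0.14 (edgeR adjusted p = 0.206). In TPM, SPRTN was at 5.73 to 8.28 in siMatrin3 and 8.54 to 9.62 in siCTRL, groups that did not overlap. No share over all genes is given for separation in TPM. The part of shared bases in the EXOC8 values was not tested.

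EXOC8 was thus 1 of 8 tested subunits past the threshold, or 12.5%, where 11% of all genes tested were called and 5.97% were called lower. The same 1 of 8 had CPM that did not overlap between groups, where 31% of all genes had none (15.5% lower in siMatrin3). At an unadjusted p under 0.05 the count was also 1 of 8, where 4364 of 16786 genes, or 26%, lay under it. DESeq2 called 0 of 8, where it called 1787 of 15109 genes in all. Limma on log2(TPM + 1) also called 0 of 8, where it called 437 of 16786 genes in all. With EXOC2, 2 of 9 subunits had CPM that did not overlap, and the median log2 fold change was -0.07 over the 9 and -0.05 over the 8, beside -0.00106 over all genes tested.

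The remaining subunits of subcomplex II did not pass the test. EXOC5 (ENSG00000070367), which links EXOC6 to the rest of the complex, was at 18.12, 14.76 and 14.61 TPM in siMatrin3 libraries and 18.03, 16.89 and 15.65 TPM in siCTRL libraries. The log2 fold change of its counts was 0.04 with a 95% interval of -0.10 to 0.17 (edgeR adjusted p = 0.76). EXOC7 (ENSG00000182473), the membrane-binding subunit, was the most abundant of the family, at 47.52, 47.67 and 48.78 TPM in siMatrin3 libraries and 43.93, 46.13 and 47.02 TPM in siCTRL libraries. Its groups stood apart on the TPM scale, for which no share over all genes is given. They overlapped on the count scale, at 136.5 to 144.9 CPM in siMatrin3 and 128.7 to 139.7 CPM in siCTRL. The log2 fold change was 0.07 with an interval of -0.03 to 0.17 (edgeR adjusted p = 0.371). Of the 2 Sec15 paralogs, EXOC6B (ENSG00000144036) was at 10.64, 10.31 and 9.27 TPM in siMatrin3 libraries and 10.57, 10.12 and 9.82 TPM in siCTRL libraries. Its log2 fold change was -0.02 with an interval of -0.13 to 0.09 (edgeR adjusted p = 0.83).

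**Figure D2:**
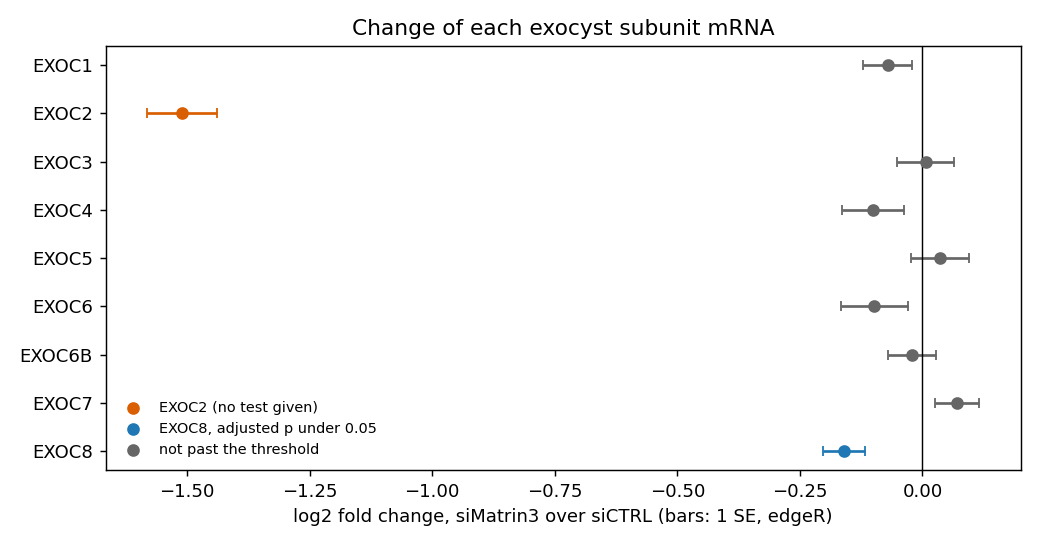
Log2 fold change of each subunit mRNA, siMatrin3 over siCTRL, with 1 SE (edgeR, counts). EXOC2 lies at -1.51 and EXOC8 at -0.16, and the other 7 lie between -0.10 and 0.07.

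For 7 of the 8 other subunits the 95% interval of the log2 fold change held 0. The widest of these reached -0.25, for EXOC6, so a change of the size of that of EXOC2 lay outside each of the 7 intervals. This does not show that they were equal in the 2 groups. EXOC3, EXOC5 and EXOC6B, whose log2 fold changes were nearest to 0, changed sign between settings.

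EXOC6 (ENSG00000138190), the paralog of EXOC6B, showed the largest spread between libraries. It was at 8.21, 6.76 and 9.20 TPM in siMatrin3 libraries and 12.03, 8.94 and 6.16 TPM in siCTRL libraries, and the siCTRL libraries alone spanned the whole siMatrin3 range. On the count scale the same libraries lay close together, at 17.04, 15.99 and 16.29 CPM in siMatrin3 and 19.31, 16.43 and 16.99 CPM in siCTRL. The coefficient of variation in siCTRL was 32.5% for TPM and 8.69% for CPM. The length that the authors' RSEM gave EXOC6, a mean over its annotated transcripts weighted by their estimated abundance, differed between libraries, at 2669, 3049 and 2328 bases in siMatrin3 and 2135, 2451 and 3555 bases in siCTRL. The library with the highest TPM, siCTRL replicate 1, had the shortest length, and the one with the lowest TPM, siCTRL replicate 3, the longest. Within a library, EXOC6 stood to EXOC6B as 0.772, 0.656 and 0.992 in siMatrin3 and as 1.14, 0.883 and 0.627 in siCTRL, so which paralog was higher was not settled by TPM. The log2 fold change of EXOC6 counts was -0.10 with a 95% interval of -0.25 to 0.06 (edgeR adjusted p = 0.418).

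Because the weighted length moves with the shares of a gene's transcripts, it was compared between the groups for each subunit. For EXOC2 it was 4097, 4089 and 4391 bases in siMatrin3 libraries and 3859, 4333 and 4296 bases in siCTRL libraries, overlapping ranges, with a log2 difference of 0.01 that is given without a test. The longest coding transcript of EXOC2 has 4456 bases in 28 exons, and the tables pool 4 transcripts. Among the other 8 subunits, 0 passed limma on log2 length (lowest adjusted p = 0.9, for EXOC6B), beside 1 of 12148 genes tested, or 0.00823%. At this test the largest log2 difference was 0.11, for EXOC5, at 4423 ± 384 bases in siMatrin3 and 4097 ± 162 bases in siCTRL (SD, n = 3 each). The fall of EXOC2 was present in counts and in TPM. Both scales led to the choice of the family, and TPM is computed from the counts, so their agreement is no added support. For EXOC6 the 2 scales differed by library.

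**Figure D3:**
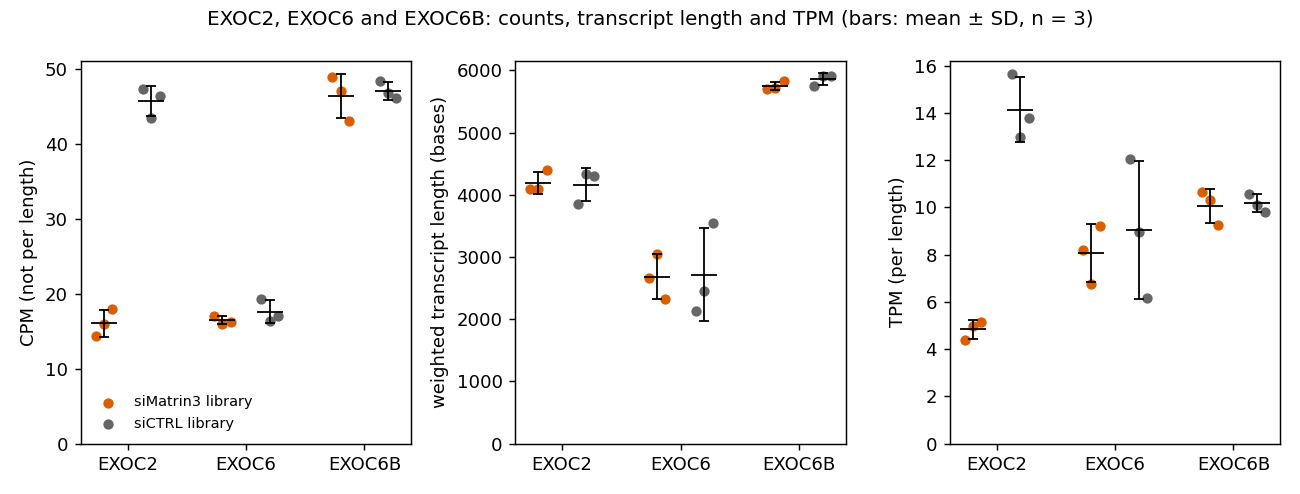
CPM, abundance-weighted transcript length (bases) and TPM of EXOC2, EXOC6 and EXOC6B in 3 siMatrin3 (orange, left) and 3 siCTRL (grey, right) libraries, with mean ± SD. EXOC2 differs between groups in CPM and TPM but not beyond the spread in length, and EXOC6 spreads in length and TPM within siCTRL.

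The order of the subunit levels changed through EXOC2. In siMatrin3 the means ran EXOC7 (48 TPM), EXOC3 (27.9), EXOC5 (15.8), EXOC4 (11.3), EXOC6B (10.1), EXOC1 (8.59), EXOC6 (8.06), EXOC8 (6.41) and EXOC2 (4.85). In siCTRL they ran EXOC7 (45.7 TPM), EXOC3 (29), EXOC5 (16.9), EXOC2 (14.1), EXOC4 (12.5), EXOC6B (10.2), EXOC1 (9.1), EXOC6 (9.04) and EXOC8 (7.26). EXOC2 was thus lowest of the 9 in siMatrin3, with no library overlapping EXOC8, and stood between EXOC5 and EXOC4 in siCTRL. Across siCTRL libraries its range met that of EXOC5 at 15.65 TPM and overlapped that of EXOC4. Within each siCTRL library the order was EXOC5, EXOC2 and EXOC4. Neighbours whose ranges met or overlapped across libraries were EXOC4 and EXOC6B, and EXOC1 and EXOC6, in siMatrin3. In siCTRL they were EXOC5 and EXOC2, EXOC2 and EXOC4, EXOC1 and EXOC6, and EXOC6 and EXOC8. EXOC2 made up 3.44% ± 0.261 of the summed TPM of the 9 subunits in siMatrin3 and 9.19% ± 0.745 in siCTRL (SD, n = 3 each). The sum itself was 141 ± 1.58 TPM in siMatrin3 and 153.7 ± 3.78 TPM in siCTRL, and without EXOC2 it was 136.1 ± 1.29 TPM in siMatrin3 and 139.6 ± 2.98 TPM in siCTRL.

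The subunits were also compared for what their genes share. In GENCODE release 44, 7 of the 9 loci were longer than the median of 33 kb over 13347 tested protein-coding genes, and 4 lay above the 90th percentile. These were EXOC4 (814 kb), EXOC6B (650 kb), EXOC6 (233 kb) and EXOC2 (208 kb), so EXOC2 was the shortest of the 4 and the one with the large fall. EXOC8 was at the other end, with 5.1 kb. The longest coding transcript held a smaller share of pyrimidines than the median of 49.6% in 8 of 9 subunits, EXOC2 among them with 48.6%, and GC content below the median of 49.4% in 7 of 9, with 44.7% for EXOC2. The longest run of pyrimidines in that transcript was 22 bases in EXOC2, 29 in EXOC8 and 31 in EXOC6B, beside a median of 15. It was above that median in 4 subunits, EXOC5 with 21 bases included, and below it in 5, with 10 to 14 bases. In length, base content and longest pyrimidine run EXOC2 lay within the range of the other subunits. These are counts over 9 genes with no test.

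No member shared exon bases with a same-strand gene in this annotation. HUS1B, a checkpoint clamp gene, lies inside EXOC2 on the same strand without sharing exon bases, and was at 0.06 to 0.19 TPM in siMatrin3 and 0.06 to 0.11 TPM in siCTRL, too low for the test. MARK2P18 in EXOC2, RNU6-652P in EXOC1, MIR6133 in EXOC4 and MIR6868 in EXOC7 also lie on the same strand with 0 shared exon bases. Counts were fractional in 4 members, EXOC3, EXOC5, EXOC7 and EXOC8, so some of their reads were divided between genes. The pseudogenes EXOC5P1 and EXOC7P1 were at 0.09 TPM or less in every library. EXOC1, EXOC3, EXOC7 and EXOC8 share exon bases with genes of the opposite strand. The kit marks strand, but whether counting used it is not given in the sources used here.

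The partners of EXOC2 and EXOC8 in RAL signalling were then examined. RAL GTPases are switched on by exchange factors and off by the RALGAP complexes. RALA was at 22.2 ± 0.478 TPM in siMatrin3 and 21.8 ± 0.343 TPM in siCTRL, and RALB was at 31.2 ± 1.21 TPM in siMatrin3 and 31.3 ± 2.12 TPM in siCTRL (SD, n = 3 each), and neither passed the test (edgeR adjusted p = 0.407 and 0.989). Of 15 RAL GTPases, regulators and effectors tested, 1 was called higher and 3 lower in siMatrin3, that is 26.7% called beside 11% of all genes tested, and the list median was 0.04. At an unadjusted p under 0.05 in edgeR the count was 8 of 15, or 53.3%, with 4 higher and 4 lower. Over all genes tested that share was 26%. RALGPS1, an exchange factor for RAL, fell to 3.28, 3.37 and 4.03 TPM in siMatrin3 libraries, against 4.97, 5.73 and 4.82 TPM in siCTRL libraries, a log2 fold change of -0.60 ± 0.07 (SE), for which edgeR gave an adjusted p of 0.000936. RGL1, another exchange factor, fell to 0.71, 0.69 and 0.74 TPM in siMatrin3 libraries, against 1.10, 1.14 and 1.10 TPM in siCTRL libraries, a log2 fold change of -0.59 ± 0.11 (SE), for which edgeR gave an adjusted p of 0.00793. RALGDS, the best known of these exchange factors, rose to 32.11, 29.40 and 31.07 TPM in siMatrin3 libraries, against 26.91, 27.23 and 28.17 TPM in siCTRL libraries. Its log2 fold change was 0.18 ± 0.04 (SE), for which edgeR gave an adjusted p of 0.0249, and 8 of 16 alternatives left it over the threshold. The remaining call, RALGAPA2, a catalytic RALGAP subunit named here after its values were seen, was at 5.71 ± 0.475 TPM in siMatrin3 and 6.97 ± 0.469 TPM in siCTRL (log2 fold change -0.22, edgeR adjusted p = 0.0343), and 8 of 16 alternatives left it over the threshold as well. With limma on log2(TPM + 1), 0 of the 15 were called, where that fit called 437 of all 16786 genes.

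Of 17 other GTPases and partners of the exocyst, 0 were called higher and 2 lower, that is 11.8% called beside 11% of all genes tested, with a list median of -0.02. An unadjusted p under 0.05 in edgeR was found for 6 of 17, or 35.3%, with 1 higher and 5 lower, beside 26% of all genes tested. RAB3IP (Rabin8), the exchange factor for RAB8 that binds the Sec15 subunit, fell to 8.14, 8.94 and 9.14 TPM in siMatrin3 libraries, against 11.24, 11.31 and 10.53 TPM in siCTRL libraries, a log2 fold change of -0.45 ± 0.05 (SE), for which edgeR gave an adjusted p of 0.000633. MYO5B, a myosin that carries RAB11 vesicles, fell to 17.36, 16.21 and 16.67 TPM in siMatrin3 libraries, against 19.54, 20.26 and 20.64 TPM in siCTRL libraries, a log2 fold change of -0.24 ± 0.05 (SE), for which edgeR gave an adjusted p of 0.0138. The groups of both genes stood apart. RAB3IP was over the threshold with limma on log2(TPM + 1) and log2(TPM + 0.1) (adjusted p = 0.0597 and 0.0572). The first of these fits called 1 of the 17, beside 437 of all 16786 genes. MYO5B was over it in 3 of 16 alternatives, at an adjusted p of 0.0594 in edgeR without siMatrin3 replicate 3, at 0.059 without siCTRL replicate 3, and against the threshold of 0.01. RAB11A, at 153.5 ± 4.26 TPM in siMatrin3 and 152.5 ± 7.11 TPM in siCTRL (SD, n = 3 each), did not pass the test (edgeR adjusted p = 0.303). Among homologs of exocyst subunits outside the complex, TNFAIP2, a relative of EXOC3, rose to 74.73, 74.41 and 76.84 TPM in siMatrin3 libraries, against 64.95, 65.12 and 66.11 TPM in siCTRL libraries, a log2 fold change of 0.20 ± 0.04 (SE), for which edgeR gave an adjusted p of 0.0121. Its call was lost in 3 of 16 alternatives, at an adjusted p of 0.0522 in edgeR without siMatrin3 replicate 3, at 0.0541 without siCTRL replicate 3, and against the threshold of 0.01. EXOC3L1 and EXOC3L4 were at 0.25 TPM or less and EXOC1L at 0 in every library, and they were not tested.

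Genes of the step after tethering and of other tethering complexes served as the comparison. Over all genes tested, edgeR called 11%, or 1849 of 16786, and 2716 of 16786 when fitted with a replicate block. DESeq2 called 1787 of 15109 and limma on log2(TPM + 1) called 437 of 16786. Beside these shares, the calls in lists of 3 to 16 genes are too few to set a list apart. Of 16 tested genes of plasma membrane fusion (SNAREs, their partners, NAPA and NSF), 0 were called by edgeR, DESeq2 or limma, and 3 had an unadjusted p under 0.05, all lower, beside 26% of all genes tested. Fitted with a replicate block, 2 of the 16 were called lower. In the COG complex of the Golgi 0 of 8 were called by edgeR, DESeq2 or limma, and 0 had an unadjusted p under 0.05. In GARP and EARP 0 of 5 and in NRZ 0 of 3 were called by edgeR, DESeq2 or limma, with 1 each at an unadjusted p under 0.05, and the replicate block called 1 of 5 in GARP and EARP. In HOPS and CORVET, which tether endosomes and lysosomes, 1 of 8 was called, VPS8, a subunit of CORVET. Its counts were 32.9, 32.86 and 33.74 CPM in siMatrin3 libraries, against 40.77, 39.29 and 41.87 CPM in siCTRL libraries (log2 fold change -0.29, edgeR adjusted p = 0.00185), but its TPM overlapped and the call was lost with a length offset (log2 fold change -0.07, adjusted p = 0.751). Limma on log2(TPM + 1) called 0 of these 8 and the replicate block called 2, both lower. In TRAPP 1 of 15 was called, TRAPPC3, a core subunit, at 50.82, 53.21 and 49.24 CPM in siMatrin3 libraries, against 46, 46.77 and 46.3 CPM in siCTRL libraries (log2 fold change 0.14, edgeR adjusted p = 0.0469), and 13 of 16 alternatives left it over the threshold. An unadjusted p under 0.05 in edgeR was found for 2 of 8 in HOPS and CORVET, both lower. In TRAPP it was found for 2 of 15, 1 higher and 1 lower. The lowest log2 fold change in these 6 lists was -0.29, and in the RAL list -0.60.

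**Figure D4:**
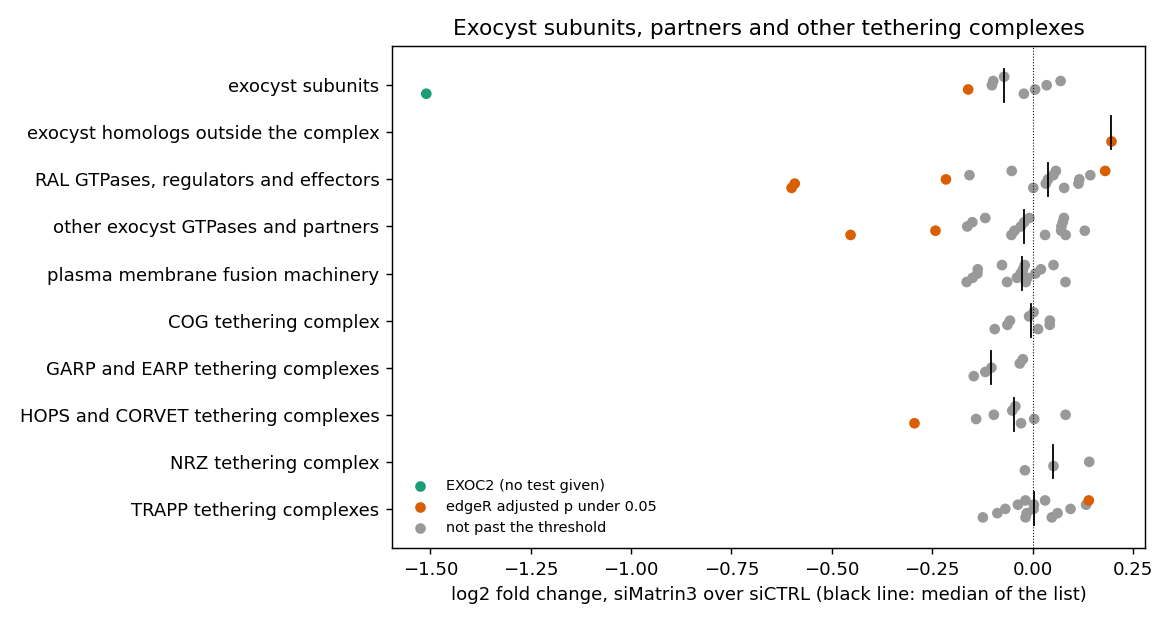
Log2 fold change, siMatrin3 over siCTRL, of each tested gene of the exocyst, its homologs and partners, the fusion machinery and 5 other groups of tethering complexes, with the list median as a black line. EXOC2 (green) is at -1.51, and the next lowest gene shown is RALGPS1 at -0.60.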

How the data were processed

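Poly(A) RNA of 3 siMatrin3 and 3 siCTRL libraries of HCT116 was analysed, with groups taken from the labels. Per the labels and methods, libraries were prepared with a stranded kit, and the authors aligned reads to hg19 with STAR and quantified genes with RSEM. STAR 2.5.1 and cutadapt are named in the processing notes of the submitters. The authors deposited expected counts, TPM, FPKM and abundance-weighted lengths per gene. Deposited FPKM, which the authors scaled by length and library size, served only to recheck the order of levels.

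The main test was the two-sided quasi-likelihood test of edgeR 4.0.16 in R 4.3.3, without covariates, on rounded expected counts after filterByExpr and TMM scaling. Genes were called at an adjusted p (Benjamini-Hochberg, 16786 genes) under 0.05. CPM are scaled by TMM. Log2 lengths of 12148 genes with at least 2 annotated transcripts and 50 expected counts in every library were tested with limma 3.58.1. DESeq2 1.42.0, the tool of the study, was an alternative, and so were limma on log2(TPM + 1) and log2(TPM + 0.1), other scalings and filters, a length offset, a replicate block and leaving out each library. On simulated counts edgeR recovered 90% of 2-fold and 35% of 1.3-fold changes, with 19 calls among the unchanged ones, in a test of 16589 genes. On simulated lengths limma recovered 84.5% of log2 changes of 0.4.

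Gene names and annotation came from GENCODE release 44 and promoters from RefSeq, both on GRCh38, whereas the tables use hg19. Of the genes in the tables, 88.3% had a symbol. Named genes were the members, MATR3, up to 3 called genes per list with the smallest p, the 3 genes most like EXOC2, and same-strand overlapping genes. The members and lists were chosen with earlier results of these data known, and lists are described by counts and medians with no set test. EXOC3L2 and PECAM1 were not analysed here, and SNAP25 was too low for the test.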

Additional observations from a re-analysis of the deposited data

How the results depend on the processing

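Counts of genes called were 706 with the length offset, 437 and 429 with limma on log2(TPM + 1) and log2(TPM + 0.1), and 561 at an adjusted p under 0.01, against 1849. Leaving out a library gave 759 to 1599, and 3 libraries moved the count by over 1.5 times, siMatrin3 replicate 2 (1014) and 3 (759) and siCTRL replicate 3 (770). Upper quartile scaling gave 636 higher and 1146 lower, against 847 and 1002. Subunits called other than EXOC2 numbered 0, in place of 1, without a filter on low counts (EXOC8 adjusted p = 0.0506, edgeR), with the length offset, DESeq2 and either limma fit, at an adjusted p under 0.01, and without any single library (0 to 0). The log2 fold change of EXOC8 was negative throughout. EXOC3 turned to -0.0118 with upper quartile scaling, -0.00117 with a filter of 1 CPM in 3 libraries, -0.0399 with the length offset and -0.0559 and -0.0577 in the limma fits, and lay between -0.0499 and 0.0499 with a library left out. EXOC5 turned to -0.0717 with the length offset and -0.0897 and -0.0949 in the limma fits, with -0.00291 to 0.107 with a library left out. EXOC6B turned to 0.00386 with the length offset, with -0.0671 to 0.0320 with a library left out. None of these 3 was called in any setting. The cause was not tested. Same-numbered libraries correlated at 0.177, 0.0896 and 7.21e-05 in their deviations from the group means, and differently numbered ones at -0.145 to 0.0641. Replicates 1 and 2 lay above that range and replicate 3 within it, so whether the numbers mark pairs is not settled. The main fit used no block. The replicate block gave 2716 genes, 1 subunit (EXOC8, edgeR adjusted p = 0.0278) and 0 changed lengths. Weighted length gave 0 of 8 subunits in every setting. The main length fit called 1 of 12148 genes, so 0 calls among 8 say little about the subunits. For EXOC6 the SE of the log2 length difference was 0.22, so the simulated recovery of changes of 0.4 need not hold there. With 3 libraries a group, changes near 1.3-fold were mostly missed on simulated data, a share that need not hold for the subunits. Their SE ran from 0.04 for EXOC8 to 0.07 for EXOC6, EXOC2 left aside. EXOC8 was called at a log2 fold change of -0.16. The 95% intervals of the other 7 lay between -0.25 (EXOC6) and 0.17 (EXOC7). No value here measures protein, splicing of single exons or RNA stability.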

Other observations

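The nearest tested genes on either side of EXOC2 on chromosome 6, picked by position after the subunit values were seen, were 5. EXOC2 was chosen for its strong fall, so the size of their changes is not compared with that of EXOC2. DUSP22, a phosphatase gene on the side of the chromosome end, was at 8.13 ± 0.148 TPM in siMatrin3 and 9.27 ± 0.512 TPM in siCTRL (SD, n = 3 each). The log2 fold change was -0.18, with an adjusted p of 0.134 in edgeR. On the other side, FOXC1, a forkhead transcription factor, was at 12.21, 13.34 and 12.38 TPM in siMatrin3 libraries, against 16.14, 15.27 and 16.33 TPM in siCTRL libraries, groups that stood apart, and it passed the test (log2 fold change -0.31, edgeR adjusted p = 0.00335). GMDS, an enzyme of GDP-fucose synthesis, was at 14.5 ± 1.1 TPM in siMatrin3 and 16.7 ± 2.06 TPM in siCTRL (log2 fold change -0.15, edgeR adjusted p = 0.0812). The pseudogene SEPTIN14P6 had a log2 fold change of 0.08 (edgeR adjusted p = 0.879) and the noncoding GMDS-DT of 0.03 (edgeR adjusted p = 0.963). FOXC1 kept its direction and its call in all 16 alternatives.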
